A study of Homo sapiens with 4 samples.

Results

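The 9 genes described here encode the route from cystine uptake through glutathione to the control of ferroptosis: SLC7A11 and SLC3A2, GCLM, GCLC and GSS, GSR, GPX4, ACSL4 and AIFM2. They were named by function, 9 of 28058 genes in the deposited count table, and SLC7A11 was chosen by its measured value too, which was among the top ones when shock wave treatment (SWT) was compared with control. Its difference between the groups is therefore given as a description, with no test. All 9 passed the filter on low counts, and each had at least 362 counts in every library. No member was left out.

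The cells were labelled as SH-SY5Y, an established human neuroblastoma line, and 4 poly(A) RNA libraries were sequenced, 2 from untreated controls and 2 from SWT samples. RNA was taken at 6 h. The sample protocols describe flasks dipped into a water bath at 37 °C, with 300 impulses of 0.08 mJ/mm2 at 3 Hz from 7 cm, whereas the series design text speaks of treated exosomes, and it is open which of these was applied. The labels do not say whether replicates were separate cultures, so p-values reflect only how these samples spread, possibly for technical reasons.

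Ferroptosis is a form of cell death driven by iron and by peroxidation of polyunsaturated membrane lipids. SLC7A11 is the light chain and SLC3A2 the heavy chain of system xc-, which imports cystine in exchange for glutamate. Cystine is reduced to cysteine, which glutamate-cysteine ligase (catalytic subunit GCLC, modifier subunit GCLM) and glutathione synthetase (GSS) build into glutathione. GPX4, a selenoprotein, uses glutathione to reduce lipid hydroperoxides, and glutathione reductase (GSR) returns the oxidised form with NADPH. ACSL4 makes membranes more sensitive by activating polyunsaturated fatty acids, and AIFM2, also called FSP1, protects them by reducing ubiquinone. Several of these genes are known targets of NRF2, which binds antioxidant response elements, and of ATF4, the factor of amino acid stress.

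RefSeq promoter windows (GRCh38.p14, 250 bases before to 50 after a start) were matched by symbol for 6 of the 9 genes, in 10 windows, since SLC3A2 and GPX4 have 3 each. SLC7A11, GSS and GSR had no entry. Windows of the same gene can overlap, as some of GPX4 do, so the 10 are not separate promoters. The core of the antioxidant response element, TGACNNNGC on either strand, was found in 1 window each of SLC3A2, GCLM and AIFM2, which makes 3 of 10 windows, against 13.3% of 35116 windows in the whole table. These are shown because SLC3A2 and GCLM are described below beside AIFM2, which carries the same core and had the smallest difference of the 9. Each line gives the 70 bases before the start, 5′ to 3′ on the gene's strand, with the match in capitals. The SLC3A2 stretch lies at chr11:62881629-62881698 (plus strand), the GCLM stretch at chr1:93909431-93909500 (minus strand) and the AIFM2 stretch at chr10:70132826-70132895 (minus strand).
SLC3A2: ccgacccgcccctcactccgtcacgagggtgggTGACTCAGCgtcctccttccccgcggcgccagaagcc
GCLM: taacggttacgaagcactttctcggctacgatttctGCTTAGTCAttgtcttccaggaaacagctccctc
AIFM2: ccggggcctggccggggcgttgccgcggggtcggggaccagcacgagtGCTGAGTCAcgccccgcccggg
The SLC3A2 match reads in the direction of the gene and the other two read on the opposite strand. The element bound by ATF4 with C/EBP factors, searched as TGATGNAA on both strands, was found in 1 of the 10 windows, the same SLC3A2 window, after the start, against 3.62% of all windows. A match is a run of letters and does not show that a factor binds there. The genes were named by function, so nothing is read from the shares of windows.

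Total counts were 9888263 to 11686808 per library. Identity markers went partly against the label. Of 11 noradrenergic neuroblastoma markers, 6 had 0 counts in all libraries, PHOX2A, TH, DBH, CHGA and MYCN among them. In these libraries 3 counts would be 0.258 to 0.303 CPM (counts scaled to library size). A level of 10 CPM in every library was reached by 2 of the 11 noradrenergic markers and by 7 of 8 mesenchymal markers. Control replicate 2 stood apart in 17 heart muscle markers, whose CPM summed to 349 there, to 38.1 in SWT replicate 1, to 8.79 in control replicate 1 and to 11.2 in SWT replicate 2. With those genes left out of the fit, the log2 differences of SLC7A11 and GPX4 were 0.34 and -0.17, as with them. That fit kept each member's own counts unchanged, so it could hardly differ. Whether the source of the heart muscle transcripts also added to the members' counts was not tested. With edgeR's quasi-likelihood test and Benjamini-Hochberg adjustment over all genes, 0 of 12399 genes were called, 0% in either direction, with 715 genes (5.77%) at an unadjusted p under 0.05. DESeq2 and limma-voom also called 0, with 116 and 721 genes at an unadjusted p under 0.05.

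Of the cystine importer, SLC7A11 had been chosen for its high value in SWT, so the import pair is not read as a group. SLC7A11 (ENSG00000151012.13, GRCh38 chromosome 4, 138164097 to 138242349, minus strand) had 165 and 199 CPM in the control libraries and 229 and 230 CPM in the SWT libraries, in order of replicate number. Both SWT libraries lay above both controls. Mean CPM was 182 ± 23.8 for the controls and 229 ± 0.740 for the SWT libraries (SD, n = 2 each), which is 1.26-fold, or 0.34 on the log2 scale with an SE of 0.072. In such bulk RNA, more cells with a transcript and more of it per cell cannot be told apart. By the F statistic of the fit it ranked 2nd of 12399 genes, which is the value that chose it. Of the spread within groups, nearly all lay in the controls: replicate 2 exceeded replicate 1 by 0.27 on the log2 scale (95% exact binomial interval 0.18 to 0.36, covering counting error only), and the SWT libraries differed by 0.0066 (-0.074 to 0.088). Leaving out control replicate 1 lowered the difference between the groups to 0.21, leaving out control replicate 2 raised it to 0.47, and it was 0.34 and 0.33 without SWT replicate 1 and 2. Its antisense neighbour SLC7A11-AS1, with which it shares 865 exon bases, had 0 to 2 counts per library. Other counted genes that share exon bases with a member are KCNE5 with ACSL4 (78) and H2AFY2 with AIFM2 (11).

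SLC3A2 (chromosome 11, 62856102 to 62888875), which also serves as heavy chain for other amino acid transporters, had 156 and 169 CPM in control and 175 and 180 CPM in SWT. Its libraries fell in the same order as those of SLC7A11, over a narrower range. Group means were 162 ± 9.19 and 177 ± 3.16 CPM (SD, n = 2 each). The log2 difference was 0.13 with an SE of 0.061 (edgeR adjusted p = 0.843), and 0.075 without control replicate 1. The ratio of SLC7A11 to SLC3A2, both per exon length, was 0.570 and 0.634 in control and 0.702 and 0.687 in SWT, so the heavy chain transcript exceeded that of the light chain in every library. With lengths of the longest transcript the ratio was 0.245 to 0.301.

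**Figure D1:**
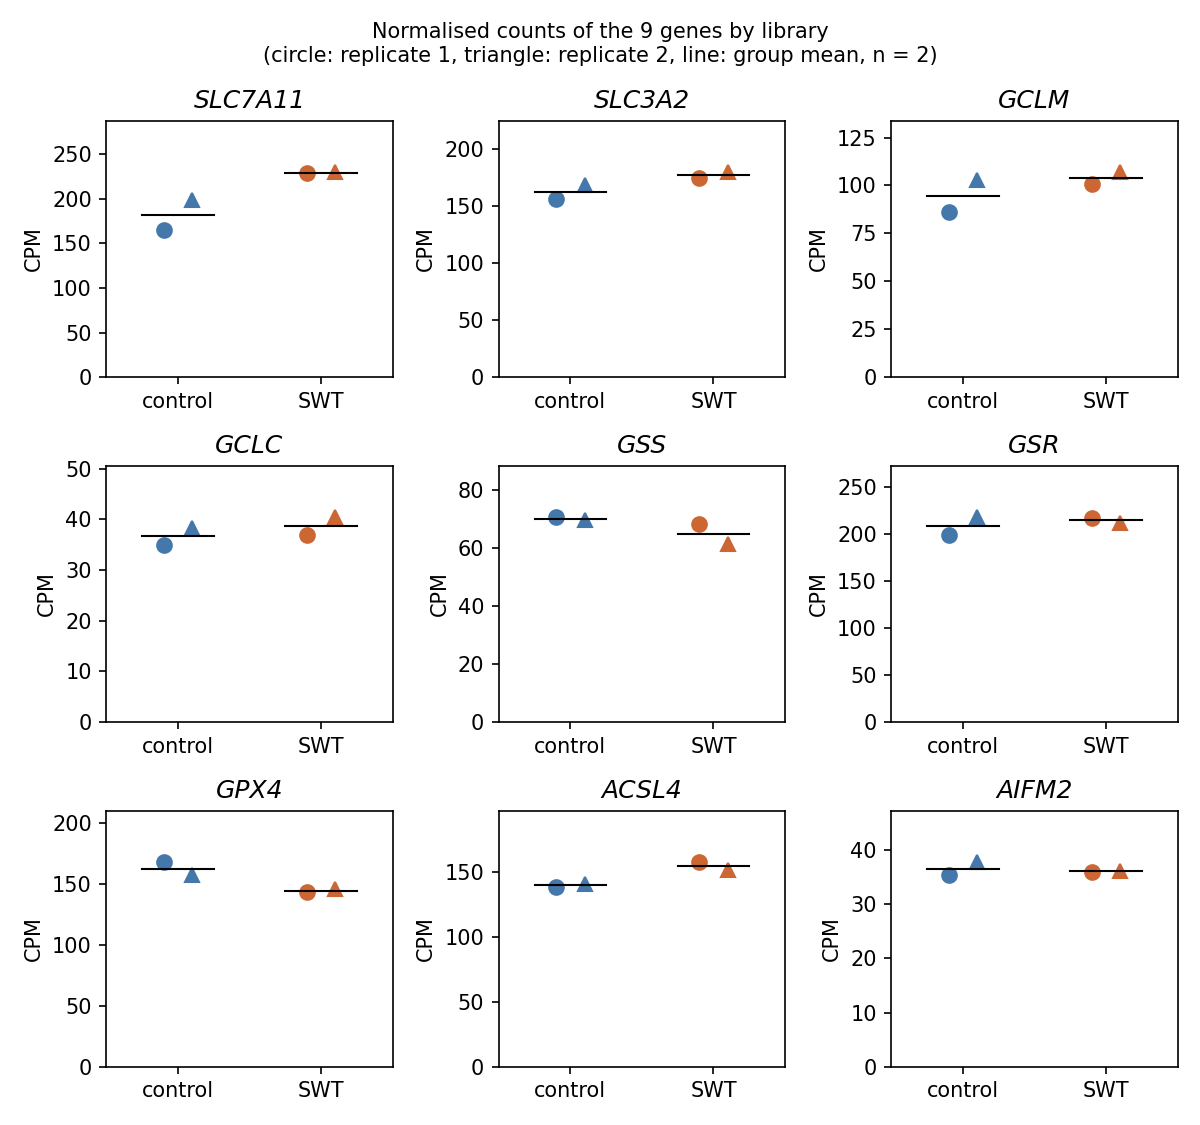
Normalised counts (CPM, y axis from 0) of the 9 genes in each library, by group on the x axis; circles are replicate 1, triangles replicate 2 and lines group means (n = 2 each). SLC7A11 runs from 165 CPM in control replicate 1 to 230 CPM in SWT replicate 2, and the GSR, GCLC, GCLM and AIFM2 groups overlap.

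The genes of glutathione synthesis did not move as one by value. GCLM (chromosome 1, 93885205 to 93909456) had 86.1 and 103 CPM in control and 101 and 107 CPM in SWT. Control replicate 1 stood below the other libraries, and the groups overlapped. The log2 fold change was 0.14 (SE 0.077, edgeR adjusted p = 0.858), smaller than the difference of 0.26 between the controls (exact binomial interval 0.13 to 0.39). With control replicate 1 left out it was 0.013. With control replicate 2 left out it was 0.27 and passed (edgeR adjusted p = 0.0187), in a fit that called 1.60% of all genes.

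GCLC (chromosome 6, 53497341 to 53616970), which carries the catalytic activity, had 35.0 and 38.4 CPM in control and 36.9 and 40.5 CPM in SWT. The groups overlapped, at a log2 difference of 0.083 (SE 0.088; edgeR adjusted p = 0.930). It stood at 0.015 without control replicate 1, 0.15 without control replicate 2 and 0.012 without SWT replicate 2. Per exon length the modifier exceeded the catalytic subunit 3.93-fold to 4.37-fold over the 4 libraries, or 1.93-fold to 2.15-fold with the longest transcripts. GSS (chromosome 20, 34928433 to 34956027), which adds glycine in the last step, had 70.8 and 69.6 CPM in control and 68.5 and 61.6 CPM in SWT. Both SWT libraries lay below both controls, SWT replicate 1 only just, at a log2 difference of -0.11 (SE 0.072; edgeR adjusted p = 0.886). It was -0.035 without SWT replicate 2 and -0.19 without SWT replicate 1.

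GSR (chromosome 8, 30678061 to 30727999) had 199 and 218 CPM in control and 217 and 212 CPM in SWT. Both SWT values lay between the controls, at a log2 difference of 0.042 (SE 0.060; edgeR adjusted p = 0.952; 95% interval -0.085 to 0.17). The sign turned without control replicate 1, to -0.021. The controls differed by 0.13 (exact binomial interval 0.042 to 0.21), more than the groups did.

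GPX4 (chromosome 19, 1103926 to 1106791) was the member furthest below 0. It had 168 and 157 CPM in control and 143 and 146 CPM in SWT, with both SWT libraries below both controls. Group means were 163 ± 8.12 and 145 ± 1.82 CPM (SD, n = 2 each). The log2 difference was -0.17 with an SE of 0.060 (edgeR adjusted p = 0.838). With control replicate 1 left out it was -0.11. With control replicate 2 left out it was -0.22 and passed (edgeR adjusted p = 0.0389).

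ACSL4 (chromosome X, 109624244 to 109733403), on the opposite side of lipid peroxidation from GPX4, had 139 and 141 CPM in control and 158 and 152 CPM in SWT. Its groups were apart, and the libraries within each group did not differ beyond counting error. Group means were 140 ± 1.57 and 155 ± 4.20 CPM (SD, n = 2 each). The log2 difference was 0.15 with an SE of 0.059 (edgeR adjusted p = 0.838), and ran from 0.12 to 0.18 when each library was left out. The ratio of GPX4 to ACSL4 per exon length was 3.85 and 3.53 in control and 2.88 and 3.05 in SWT, so GPX4 transcripts exceeded those of ACSL4 in every library. With lengths of the longest transcript the ratio was 4.09 to 5.46. The ratio is not corrected for the library trend described below, which was -0.065 for GPX4 and 0.040 for ACSL4. AIFM2 (chromosome 10, 70098223 to 70132934) had 35.3 and 37.8 CPM in control and 35.9 and 36.2 CPM in SWT. The SWT values lay between the controls, and the log2 fold change was -0.017 (SE 0.085, edgeR adjusted p = 0.995; 95% interval -0.20 to 0.16). It turned to 0.032 without control replicate 2.

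**Figure D2:**
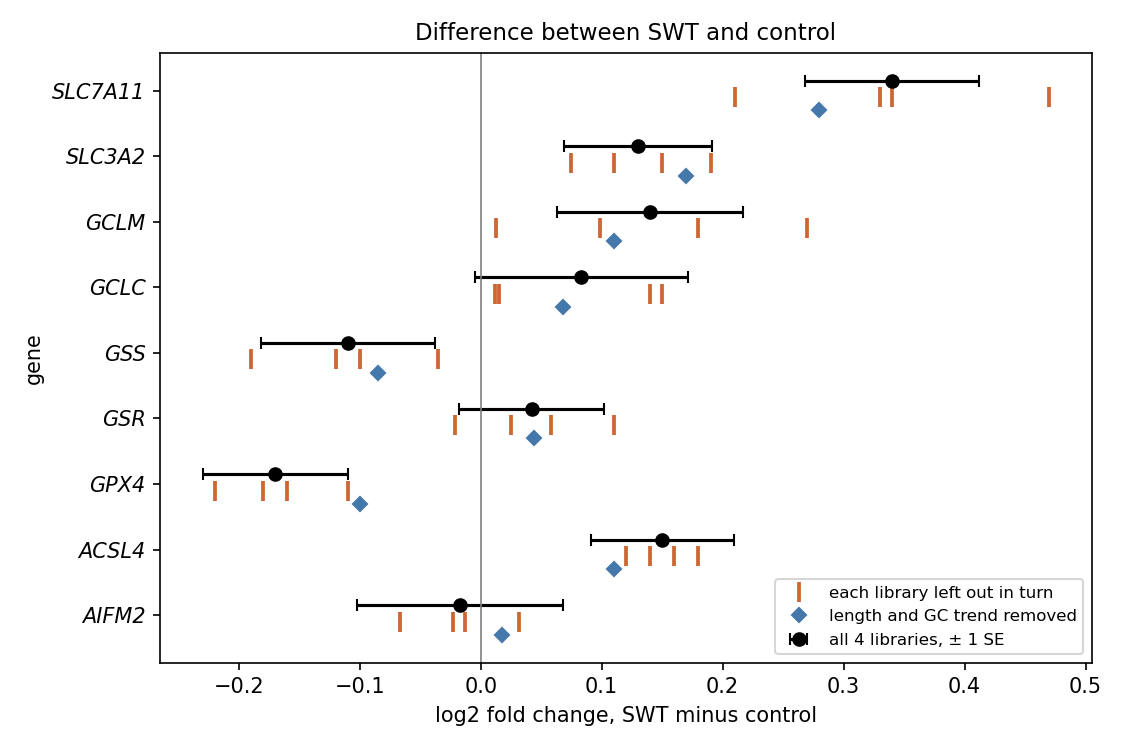
Log2 fold change (SWT minus control, x axis) of each gene (y axis): black points are the fit of all 4 libraries with ± 1 SE, ticks the fits with 1 library left out, diamonds the fit with length and GC trends removed. SLC7A11 lies at 0.34 and GPX4 at -0.17, and ticks of GSR and AIFM2 fall on both sides of 0.

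Of the 8 genes other than SLC7A11, 0 were called, as for all genes (0%). SLC3A2 and ACSL4 had both SWT libraries above both controls, which held for 17.3% of all genes tested, and GSS and GPX4 had both below, which held for 18.0%. An unadjusted p under 0.05 was found for 3 of the 8 (SLC3A2, ACSL4 and GPX4), beside 5.77% of all genes. Since the genes were proposed with this contrast known, nothing is read from these shares. The median log2 fold change of the 8 was 0.062, and over all genes tested -0.00078.

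The libraries also differed along GC content. Over 6293 genes the log2 fold change went with GC content of the longest transcript at a Spearman rho of -0.410 and with its length at 0.281, both across genes, which are not independent replicates. SLC7A11, GCLM and ACSL4 had GC contents of 35.4%, 37.3% and 37.4%, and GPX4, SLC3A2, AIFM2 and GSS of 62.5%, 57.4%, 56.1% and 54.2%. The trend at each gene's own GC content and length was 0.063 for SLC7A11, 0.040 for ACSL4 and -0.065 for GPX4. With each library's trend removed, SLC7A11 stood at 0.28, SLC3A2 at 0.17, GCLM and ACSL4 at 0.11, GPX4 at -0.10 and GSS at -0.085. SLC3A2 thus moved away from 0 and GPX4 towards it, a change of over 1.5 times for GPX4. AIFM2 turned sign, to 0.018.

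Between replicates, control and SWT libraries differed in different measure. The exact binomial interval for the 2 controls left out 0 for 5 of the 9 genes (SLC7A11, SLC3A2, GCLM, GSR and GPX4), against 28.5% of the 6324 genes with a mean log2 CPM of at least 5. For the 2 SWT libraries it did so for 0 of 9, against 14.4%. These intervals compare libraries, not conditions, and are not corrected for trends along length and GC content. From control replicate 1 to 2 that trend was -0.10 for GPX4, beside a difference of -0.10. It was 0.084 for GCLM, 0.043 for SLC7A11 and 0.016 for GSR, each of the same sign as the difference. For SLC3A2 it was -0.049, opposite in sign to the difference of 0.12. Control replicate 1 was the lowest of the 4 libraries for 7 of the 9 genes, all but GSS and GPX4, and for 28.6% of all genes tested. SLC7A11, chosen for its high value in SWT, is among the 7. A gene higher in SWT is also more likely to have a control library lowest. Nothing is read from this count or from the 5 of 9 above.

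**Figure D3:**
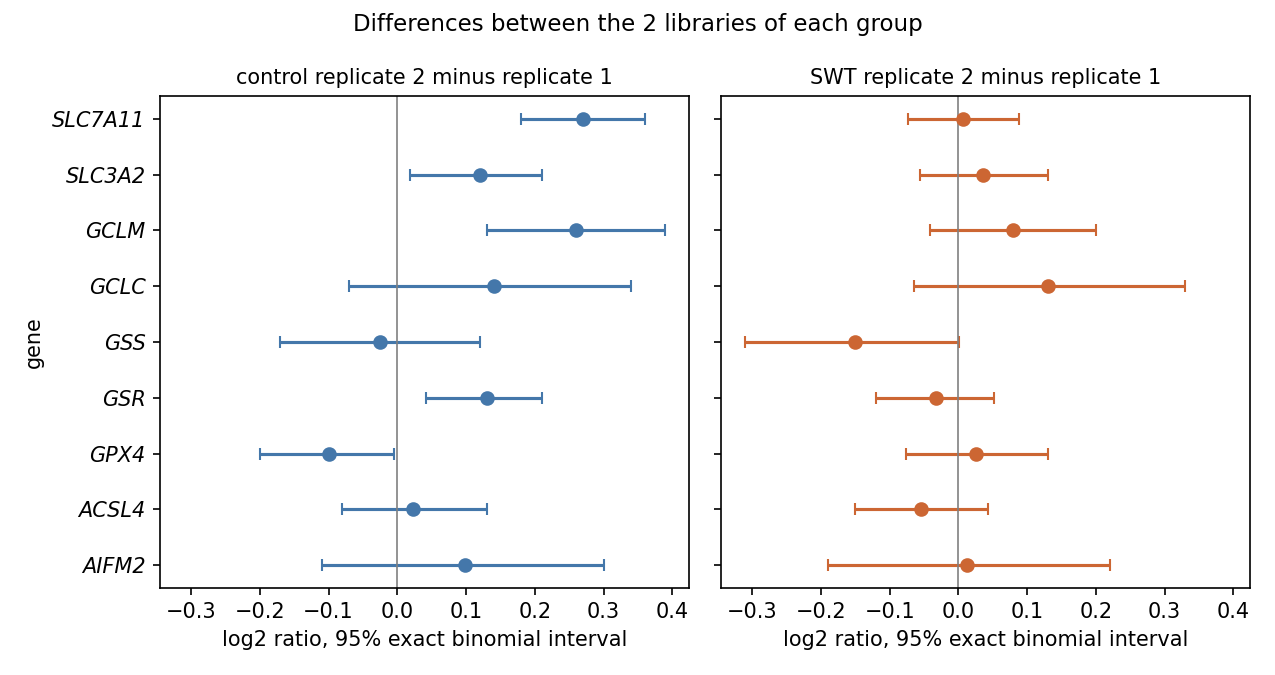
Log2 ratio of replicate 2 to replicate 1 (x axis) in control (left) and SWT (right) for each gene (y axis), with 95% exact binomial intervals for counting error. SLC7A11 and GCLM differ most between the controls, at 0.27 and 0.26, and every SWT interval includes 0.

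Per exon length, scaled to the same total in each library (as in TPM), GPX4 was the most abundant of the 9 transcripts at 329 ± 22.3, followed by GSR at 244 ± 10.6 and SLC3A2 at 142 ± 9.53 (SD, n = 4). ACSL4 at 99.6 ± 6.85, SLC7A11 at 92.4 ± 14.3 and GCLM at 79.3 ± 7.53 came next, and neighbours in this stretch overlapped between libraries. GSS stood at 47.4 ± 2.73, AIFM2 at 30.6 ± 0.848 and GCLC at 18.9 ± 1.22. With the longest annotated transcript in place of all exons, SLC3A2 (231) passed GSR (200), and GSS (67.7) passed SLC7A11 (64.5) and GCLM (61.8), so the order in the middle depends on the length used. GPX4 at 392 stayed first and GCLC at 29.9 last.

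Around the members, 137 other genes in 12 lists of the same pathways were examined, and 109 passed the filter. None was called by edgeR in either direction. Of the 109, 44 stood above 0 and 65 below, beside 6161 and 6238 of all 12399 genes tested. Their median was -0.023 on the log2 scale, against -0.00078 over all genes tested. Both SWT libraries lay above both controls for 17 of the 109 and below for 20. Over all genes tested this held for 17.3% and 18.0%, so nothing is read from these counts.

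Among other partners of SLC3A2, SLC7A5, the large neutral amino acid transporter, had 179 and 208 CPM in control and 210 and 223 CPM in SWT (log2 fold change 0.16, SE 0.068). Control replicate 1 stood lowest, which held for 31 of the 109 other listed genes (28.4%) and 28.6% of all genes tested. CHAC1, which degrades glutathione and is a known ATF4 target, had 38 and 39 counts in control and 45 and 71 in SWT, a log2 difference of 0.57 (SE 0.23; edgeR adjusted p = 0.838), so most of the difference lay in SWT replicate 2. ATF4 itself stood at -0.010 and ATF3 at 0.30 (SE 0.23), from 36 to 51 counts per library. In the other direction GGT1, which cleaves glutathione outside the cell, stood at -0.44 (SE 0.29) on 20 to 38 counts.

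Of the regulators of the NRF2 branch, NFE2L2 (which encodes NRF2) stood at 0.057, KEAP1, its inhibitor, at -0.050 and BACH1, its competitor, at 0.11. BACH1 had both SWT libraries above both controls, at 38.3 and 41.1 CPM in control and 42.3 and 43.2 CPM in SWT. MAFF, a small MAF partner of NRF2, stood at 0.26 (SE 0.26) on 39 to 70 counts per library. TXNRD1, thioredoxin reductase, had 1283 and 1416 CPM in control and 1527 and 1498 CPM in SWT (log2 fold change 0.16, SE 0.050). SRXN1, sulfiredoxin, had 281 and 323 CPM in control and 333 and 327 CPM in SWT (0.13, SE 0.063). TXNIP, the thioredoxin inhibitor, had 35.0 and 32.8 CPM in control and 22.8 and 29.5 CPM in SWT (-0.37, SE 0.11), and the peroxiredoxin PRDX5 stood at -0.17 (SE 0.060). These 4 genes had edgeR adjusted p-values of 0.838 to 0.843. Over the 17 genes of that list 9 were above 0 and 8 below, with a median of 0.00019.

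Genes that supply NADPH for GSR mostly stood below 0 by value, 9 of 11 in that list with GSR included, at a median of -0.034. TKT, transketolase of the pentose phosphate pathway, had 1052 and 1003 CPM in control and 940 and 970 CPM in SWT (log2 fold change -0.11, SE 0.048). Of 12 tested glutathione transferases, 9 were below 0, at a median of -0.095, with GSTP1 at -0.12 (SE 0.058). Over all genes tested, 6238 of 12399 were below 0. Neither list had a gene called, and no direction is read from these counts.

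Of 8 glutathione peroxidases, GPX1, GPX4 and GPX8 passed the filter, and GPX1, the abundant cytosolic enzyme, stood at -0.092 and GPX8, of the endoplasmic reticulum, at 0.071. GPX3, a secreted peroxidase, had 0 and 55 counts in control and 2 and 0 in SWT. Its counts lay in the 2 libraries with the highest summed heart muscle markers, and whether they share a source was not tested. The 7 tested genes of selenoprotein synthesis, on which GPX4 depends, ranged from -0.081 (SECISBP2) to 0.070 (LRP8).

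Beside ACSL4, the lysophospholipid acyltransferase gene LPCAT3, which places the activated fatty acids into phospholipids, stood at -0.16 (SE 0.089), opposite in sign. The lipoxygenase genes ALOX5, ALOX12, ALOX15 and ALOX15B had 0 counts in all libraries. Of the genes that protect apart from glutathione, 7 were above 0 and 8 below, with MBOAT2 at 0.19 (SE 0.067) and MBOAT1 at -0.26 (SE 0.15). Of the iron genes, the ferritin light chain gene FTL stood at -0.15 (SE 0.038, edgeR adjusted p = 0.759).

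Without control replicate 2, edgeR called 203 of 12697 genes (1.60%), 106 higher (0.835%) and 97 lower (0.764%). Of the 109 genes 8 passed in that fit, 4 higher (SLC7A5, TXNRD1, SRXN1 and MBOAT2) and 4 lower (FTL, PRDX5 and TXNIP among them), and of the 8 members other than SLC7A11, GCLM and GPX4 did. Nothing is read from these counts. That fit has 1 control, replicate 1, assumed to vary like the SWT group.

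**Figure D4:**
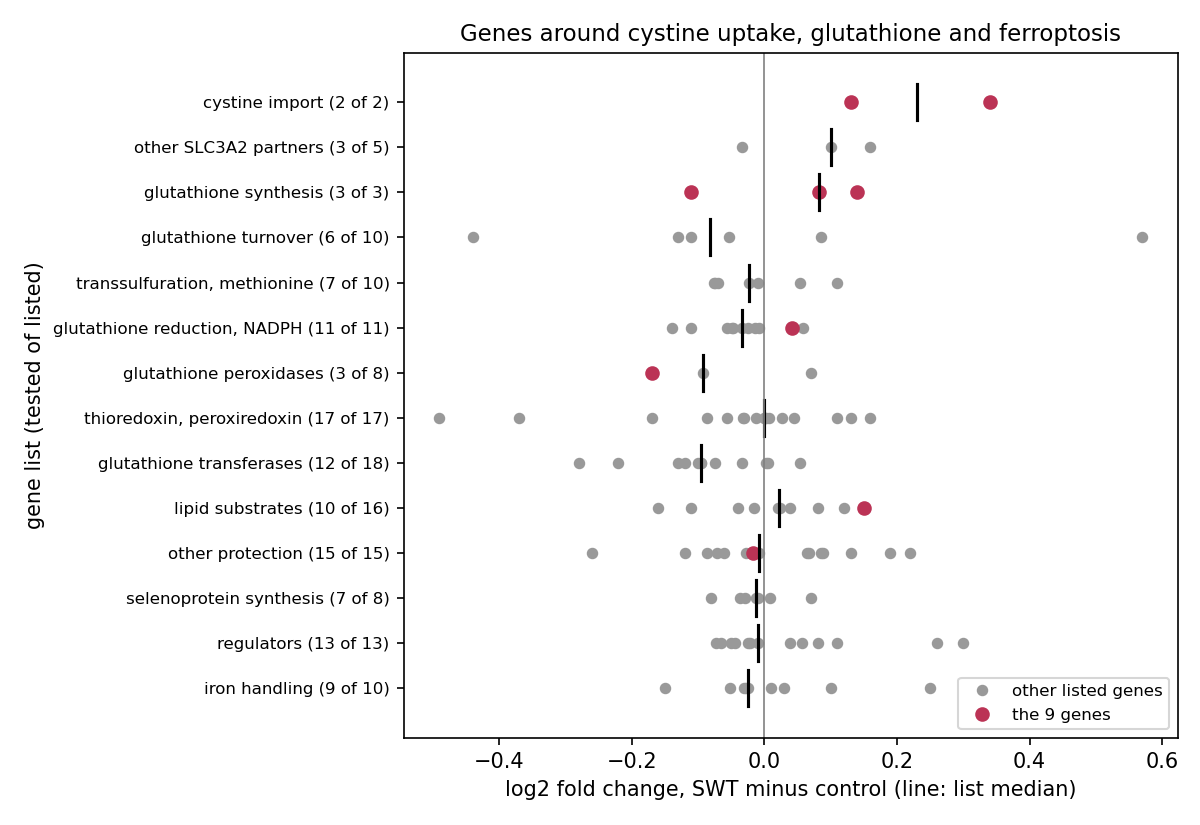
Log2 fold change (SWT minus control, x axis) of each tested gene in 14 lists (y axis, tested of listed); red points are the 9 genes, grey points other genes and lines the list medians. The transferases have 9 of 12 genes below 0, and in cystine import the gene at 0.34 is SLC7A11, which was chosen by this value.

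The genes closest to SLC7A11 in pattern, by Euclidean distance between centred log2 CPM over the 4 libraries among 6323 genes, were MYBL1 (distance 0.0471), IL18 (0.0587), CYR61 (0.0660), PODXL (0.0733) and IGFBP3 (0.0758). All 5 had control replicate 1 lowest, control replicate 2 next and both SWT libraries above. MYBL1, a MYB family transcription factor gene, had 32.7 and 39.0 CPM in control and 46.1 and 44.2 CPM in SWT. Of the other members GCLM was nearest, ranked 91st, then SLC3A2 at 173rd and ACSL4 at 345th, and GPX4 was farthest, at 6134th. With 4 libraries these distances describe the profiles only.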

How the data were processed

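The authors deposited raw counts per gene symbol for 28058 genes, and a table of values for 17151 genes that track log2 of the counts, so that the authors' log2 scale was read from the values, with no pseudocount added. Trimmomatic 0.36, FastQC 0.11.5, STAR 2.5.3a, HTSeq, DESeq2 and hg38 are named without a role, per the submitters' processing notes. For the counting, annotation and strand setting are not given in the sources used here, and the library kit marks strand, according to the protocols. Sample titles gave groups and replicate numbers.

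Counts were fitted with edgeR 4.0.16 in R 4.3.3 (filterByExpr by group, TMM, quasi-likelihood F-test, Benjamini-Hochberg over 12399 genes, threshold 0.05), and checked on simulated counts. The simulated fold changes were larger than that of any member, so the check does not cover differences of the members' size. CPM uses TMM-scaled library sizes, and log2 CPM a prior count of 2. Standard errors divide the log2 fold change by the root of F, and 95% intervals use a t quantile, so both are approximate. Positions, exon lengths and GC content are from GENCODE release 29 (GRCh38), matched by symbol for 25694 genes (99.3% of counts). Per-length values divide counts by exon length and scale each library to the same total, as TPM does. Plots used Python 3.11.15 and matplotlib 3.10.9.

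The members, lists and rules were chosen with earlier results of these data known. Named were the 9 members, up to 4 genes of each list with the smallest p-values and the 5 nearest patterns. ATF4, NFE2L2, KEAP1, MAFF, SRXN1, GPX3, ID1, MYH6, neighbours of the members and the genes at 0 counts were named after their values were seen. Some listed genes are not reported here by name. Alternatives were DESeq2 1.42.0, limma-voom and limma 3.58.1 on the log2 values, other scalings and filters, robust empirical Bayes, a replicate block, each library left out, length and GC trends removed, and heart muscle genes left out.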

Additional observations from a re-analysis of the deposited data

How the results depend on the processing

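Over 15 alternatives each, the log2 fold changes of SLC7A11 (0.18 to 0.47), SLC3A2, GCLM, GCLC, GSS, GPX4 and ACSL4 kept their sign. With each library left out GSR ran from -0.021 (without control replicate 1) to 0.11 and AIFM2 from -0.067 to 0.032 (without control replicate 2), and AIFM2 was 0.018 with length and GC trends removed. The cause of these changes of sign was not tested. The lowest SLC7A11 value, 0.18, came from the deposited log2 values, whose differences were 0.377 times those of log2 CPM across genes. Counts of 0 genes higher and 0 lower became 20 and 43 with no filter. With trends removed 1 gene was higher (ID1), and with the replicate block 1 was lower (MYH6). Leaving out 1 library gave 2 to 106 genes higher and 15 to 97 lower. Of the 8 members besides SLC7A11, 0 to 1 were higher and 0 to 1 lower in those fits, GCLM and GPX4 without control replicate 2. Of the pathway genes, 0 to 4 were higher and 1 to 4 lower, and with no filter 2 were lower (FTL and GPX3). The block changed no member's call. Same-numbered deviations correlated at -0.283 over 6324 genes. They rest on 1 difference per group, so they cannot show whether libraries were paired, by number or otherwise. Depth limits the rarer members most: the counting interval between the SWT libraries ran from -0.074 to 0.088 for SLC7A11 and from -0.19 to 0.22 for AIFM2.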
